A study of Gnathonemus petersii with 18 samples.

Results

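The Hox genes described here are hoxb6, hoxc6, hoxa7, hoxb8, hoxc8, hoxa9 and hoxb9 of Gnathonemus petersii, the elephantnose fish, which lives in African fresh water and senses its surroundings with weak electric fields. They were chosen by name, as genes of paralogue groups 6 to 9, and are 7 of the 22 Hox genes that carry a symbol and of the 28031 genes in the deposited table. A further gene of this range, hoxb7, is not among the 7 and is given beside them. RNA was sequenced from the spinal cord, the trigeminal ganglion and the cerebellum, with 6 libraries per tissue, 18 in all, from 6 individual fish. The sources used here give no sex, age or treatment of the fish. The sample titles call the cerebellum libraries "brain", and the tissue label says cerebellum. They also do not say which stretch of the cord was taken.

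Hox genes code for homeodomain transcription factors that lie in clusters, here with the letters a to d, and genes of the same number in different clusters are paralogues. In vertebrate embryos they are switched on in an order along the head-to-tail axis that follows their order in the cluster, so that low numbers reach the hindbrain and higher numbers begin further back in the trunk and tail. In mouse and chick, the genes of the middle and posterior groups help to set which motor neurons form at which level of the spinal cord. The cerebellum arises in front of the domain of Hox expression, and the trigeminal ganglion serves the head.

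Total gene counts ran from 10346375 to 17587837 per library. The tissue labels were checked with marker genes, given here as summed CPM, which are counts scaled to the effective size of the library. Markers of sensory ganglion neurons (6 genes in the table) summed to 1053 to 1873 CPM in the ganglion, 74.3 to 134 in cord libraries and 4.25 to 10.3 in cerebellum libraries. Cerebellum markers (8 genes) summed to 2947 to 3731 CPM in the cerebellum, 142 to 197 in the cord and 87.9 to 106 in the ganglion. Markers of spinal motor neurons and interneurons (8 genes) summed to 323 to 628 CPM in cord libraries, 17.3 to 29.6 in cerebellum libraries and 6.33 to 31.0 in ganglion libraries. Not every single marker followed its label. Of the cerebellum markers, cbln1 had a mean of 17.87 CPM in the cord and 4.82 in the cerebellum. Mean calb1 was 70.35 CPM in the ganglion and 21.74 in the cerebellum. Of the spinal markers, gata3 had a mean of 6.45 CPM in the cord and 18.52 in the ganglion. These genes are named after their values were seen. The muscle actin gene acta1, the single skeletal muscle marker in the table, ran from 107 to 1295 CPM in the cord libraries, from 3.65 to 3252 CPM in the ganglion, where replicate 1 was the highest, and reached 0.863 CPM in the cerebellum. Peripheral myelin genes (prx, pmp22 and egr2) summed to 11060 CPM in ganglion replicate 5 and to 2618 to 4583 CPM in the other ganglion libraries. P-values measure the spread between these libraries.

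All 7 genes were present in every spinal cord library and nearly absent from the other 12 libraries. Over all 7, a cord library held 10591 to 15493 counts, a ganglion library 1 to 16 and a cerebellum library 0 to 7. For each of the 7 the lowest cord library lay above the highest library of both other tissues, a separation that 8.09% of the 20691 tested genes showed. In bulk tissue, fewer cells that express a gene and less RNA per cell cannot be told apart.

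**Figure D1:**
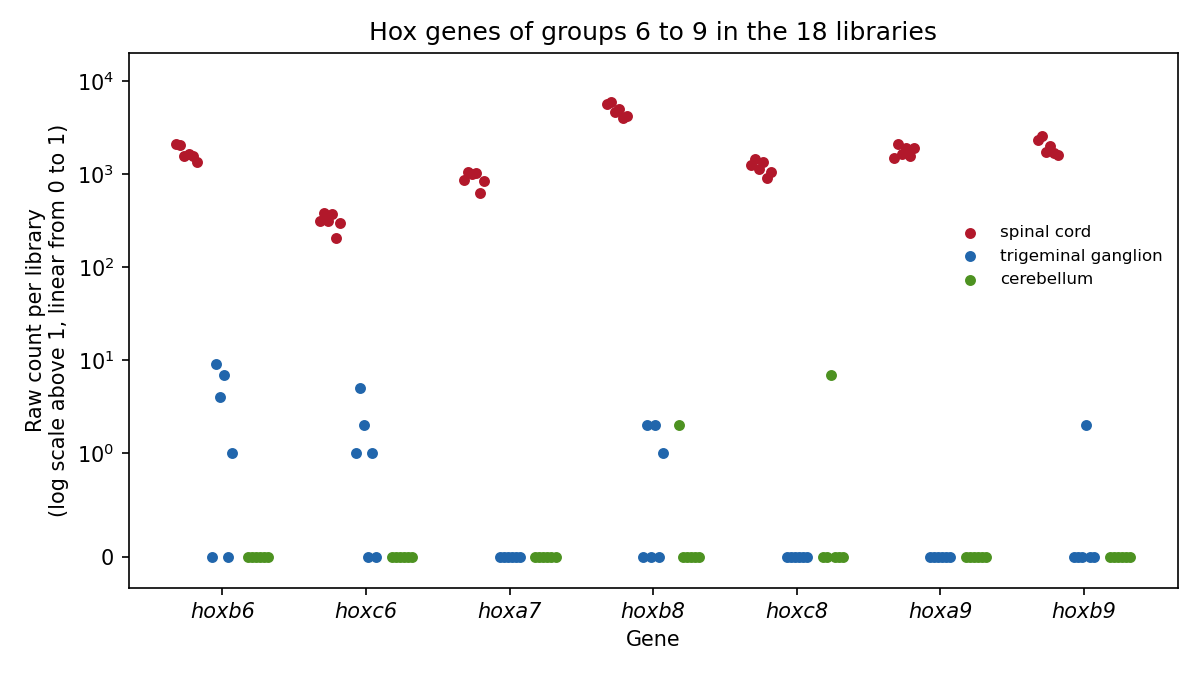
Raw counts of the 7 Hox genes (x axis) in each of the 18 libraries (points, coloured by tissue), on an axis that is logarithmic above 1 count. The cord libraries lie between 207 and 5909 counts, and no ganglion or cerebellum library is above 9.

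The level of the 7 genes in the cord was compared as TPM, a share of transcripts that corrects for gene length and so allows genes to be set side by side. The group 8 gene hoxb8, which in mouse serves the sensory dorsal horn of the cord, had 237 TPM in the lowest cord library, a median of 290 and 333 in the highest. The group 9 gene hoxb9, which in mouse acts with its paralogues in the thoracic body region, had 179, 209 and 252 TPM, and the group 6 gene hoxb6, expressed in the mouse trunk from the level of the forelimb backwards, had 170, 207 and 265 TPM. These 3 genes of cluster b stood above the other 4 in every cord library.

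The remaining 4 genes lie in clusters a and c. The gene hoxa9, a group 9 paralogue of hoxb9, had 68.4 TPM in the lowest cord library, a median of 83.1 and 89.8 in the highest. For hoxc8, which in mouse patterns motor neurons at the level of the forelimb and the trunk behind it, these values were 54.9, 77.2 and 79.0 TPM. For hoxa7, which in mouse takes part in patterning the vertebrae, they were 50.1, 70.5 and 90.1 TPM. The 3 ranges overlap. The lowest was hoxc6, in mouse and chick a gene of motor neurons that supply the forelimb, with 7.33, 11.5 and 12.7 TPM, below all other 6 in every library.

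The mean levels therefore ran hoxb8 (285 ± 35.6 TPM, SD, n = 6), hoxb9 (213 ± 29.3), hoxb6 (210 ± 33.0), hoxa9 (80.1 ± 8.48), hoxc8 (72.0 ± 9.78), hoxa7 (71.1 ± 13.1) and hoxc6 (11.0 ± 1.96). Each of the 21 pairs was compared within libraries on log2(TPM + 0.1). The test flipped the signs of the 6 differences (exact permutation, two-sided), with p adjusted by Benjamini-Hochberg over the 21. In 17 pairs the same gene was higher in all 6 libraries, with an exact p = 0.03125, the smallest that 6 libraries allow, and an adjusted p of 0.0386. The 4 other pairs did not differ beyond their spread on this scale, though in CPM each was ordered alike in all 6 libraries. Of these, hoxb9 and hoxb6 differed by a mean of 0.02 on the log2 scale (SD 0.09), with hoxb9 higher in 3 of 6 libraries (exact p = 0.594, adjusted p = 0.623). The genes hoxa9 and hoxc8 differed by 0.16 (SD 0.22, hoxa9 higher in 5 of 6, exact p = 0.156, adjusted p = 0.173), and hoxa9 and hoxa7 by 0.19 (SD 0.23, hoxa9 higher in 4 of 6, exact p = 0.125, adjusted p = 0.146). The genes hoxc8 and hoxa7 differed by 0.03 (SD 0.13, hoxc8 higher in 4 of 6), with the highest p of the 21 pairs. In cord replicate 1 alone hoxa9 lay below hoxc8, and without that library 18 pairs were ordered alike.

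**Figure D2:**
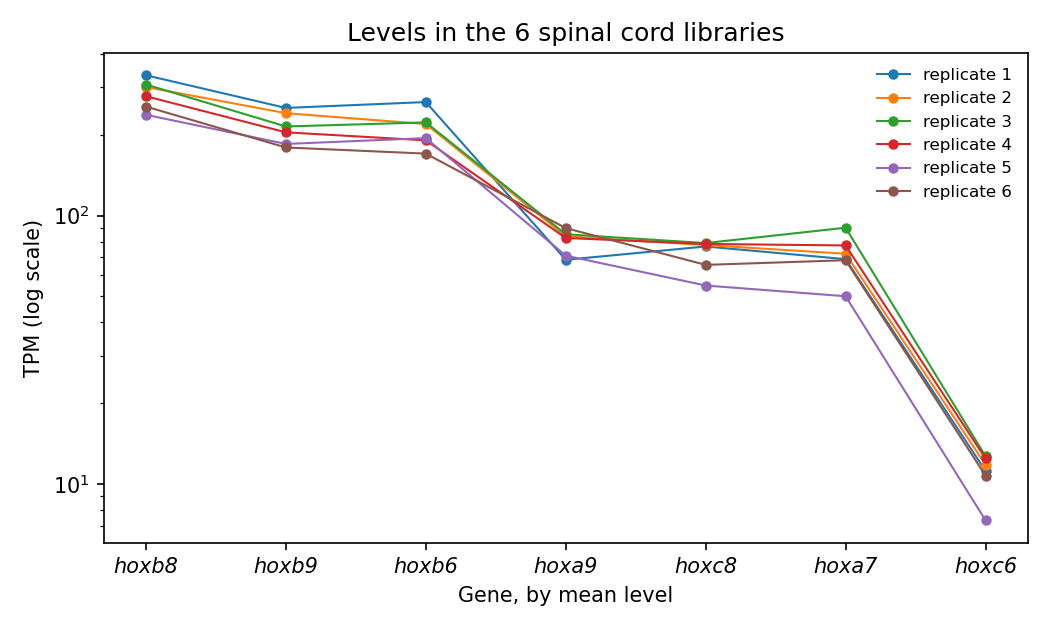
TPM (log axis) of the 7 Hox genes, ordered by mean level (x axis), with a line for each of the 6 spinal cord libraries. In every library hoxb8 is the highest gene and hoxc6 the lowest, and the order of genes changes between libraries only among hoxa9, hoxc8 and hoxa7 and between hoxb9 and hoxb6.

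Each of groups 6 to 9 had 2 genes with a symbol. Copies that carry only a locus identifier could not be found by symbol, so the comparison covers the named genes only. Between the 2 named genes of a group the level per length differed, and on that scale the gene of cluster b was the higher in each group. In group 6, hoxb6 was 19.0-fold above hoxc6 per length. In group 8, hoxb8 was 3.97-fold above hoxc8, and in group 9 hoxb9 was 2.64-fold above hoxa9. The group 7 gene hoxb7, at 114 ± 16.1 TPM (SD, n = 6), had a higher mean than hoxa7. It had 8 ganglion counts and none in the cerebellum, and was called higher in the cord than in both, at least 2207-fold against the cerebellum. Together hoxb6, hoxb8 and hoxb9 made up a mean of 75.1% of the summed TPM of the 7 genes, hoxa7 and hoxa9 16.1%, and hoxc6 and hoxc8 8.81%. TPM rests on the gene length of the annotation, in which hoxb6 is 0.285 times as long as hoxc6. Without division by length the cord means were 141 ± 22.5 CPM for hoxb6, 26.0 ± 4.66 CPM for hoxc6, 146 ± 15.5 CPM for hoxa9 and 162 ± 23.8 CPM for hoxb9, so on that scale hoxa9 lay close to hoxb6 and hoxb9. In CPM hoxb9 was above hoxa9 in 5 of 6 cord libraries, and hoxa9 above hoxb6 in 4 of 6. In group 7 the order depends on the division by length: hoxb7 was above hoxa7 in 6 of 6 libraries in TPM and in 3 of 6 in CPM, with means of 73.7 ± 10.3 and 74.2 ± 13.6 CPM.

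Against all tested genes, the mean TPM of hoxb8 in the cord lay at percentile 97.8, those of hoxb9 and hoxb6 at 97.0 and 96.9, those of hoxa9, hoxc8 and hoxa7 at 91.4, 90.3 and 90.2, and that of hoxc6 at 52.9.

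The comparison of cord with cerebellum sets a tissue of the trunk against a brain region in front of the Hox domain. All 7 genes were higher in the cord by edgeR's quasi-likelihood test, called at a Benjamini-Hochberg adjusted p under 0.05 over all tested genes and a log2 fold change of at least 1, where 28.9% of all tested genes were called higher in the cord. The genes passed the filter on low counts through the cord alone, so a call in its favour was bound to follow. The median log2 fold change of the 7 was 13.62, and that of all tested genes was 0.08. With few or no counts in the cerebellum, the fitted size depends on the scale. With limma on log2(TPM + 1), where the added 1 shrinks changes near 0, the 7 ran from 3.57 (hoxc6) to 8.13 (hoxb8). Of the 7, 5 had no count in any of the 6 cerebellum libraries. Set against a floor of 3 counts over those libraries, hoxb9 was at least 4880-fold higher in the cord, hoxa9 at least 4366-fold, hoxb6 at least 4217-fold, hoxa7 at least 2214-fold and hoxc6 at least 777-fold.

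The few cerebellum counts of the 2 other genes sat in single libraries. For hoxb8, 2 counts fell in cerebellum replicate 1 against 29447 in the cord, a ratio of scaled counts of 18170, for which counting error alone allows 5029 to 150000 (95%). Without that library hoxb8 had no cerebellum count and was at least 9955-fold higher in the cord. For hoxc8, all 7 cerebellum counts fell in replicate 3, and the log2 fold change was 10.13 ± 0.564 (approximate SE, edgeR adjusted p = 8.33e-10). Without cerebellum replicate 3 the fitted log2 fold change was 13.25, and against the floor the gene was at least 2454-fold higher in the cord. With that library the ratio of scaled counts was 1264. That library also held 13 counts of the motor neuron gene slc18a3, against 0 to 8 in the other cerebellum libraries. Its count of the cord marker slc6a5 was 39, against 17 to 71 in the others. The genes hoxb8, hoxa9, hoxb9 and hoxb6, each with more cord counts than hoxc8, had 0 counts in that library. The source of the hoxc8 counts was not tested.

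The comparison of cord with ganglion sets a central tissue of the trunk against a sensory ganglion of the head, both in bulk and not as neurons alone. All 7 genes were higher in the cord, where 17.3% of all tested genes were, with a median log2 fold change of 12.17 against 0.01 for all tested genes. Here too the genes passed the filter on low counts through the cord alone, so a call in its favour was bound to follow. With limma on log2(TPM + 1) the log2 fold changes of the 7 ran from 3.51 (hoxc6) to 8.09 (hoxb8). For the cord against both tissues at the same time the share of all tested genes called higher was 8.12%. The comparisons share the cord libraries. The genes hoxa9, hoxc8 and hoxa7 had no count in any ganglion library, so the cord level of hoxa9 was at least 3146-fold higher, that of hoxc8 at least 2126-fold and that of hoxa7 at least 1596-fold. For hoxb9, 2 counts in ganglion replicate 4 gave a ratio of scaled counts of 5275 (1460 to 43560 from counting error alone), and without that library the gene was at least 2848-fold higher. The gene hoxb8, with 5 ganglion counts in 3 libraries, had a log2 fold change of 12.17 ± 0.42 (edgeR adjusted p = 9.52e-14).

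Both group 6 genes differed less from the ganglion than the others did in their fitted values. For hoxb6 the log2 fold change was 8.71 ± 0.48 (edgeR adjusted p = 1.12e-09), and for hoxc6 it was 7.41 ± 0.514 (edgeR adjusted p = 1.41e-08). Without ganglion replicate 2 these values were 9.33 and 8.33. The difference between the genes in this contrast was not tested.

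Within the ganglion, hoxb6 had 21 counts, of which 9 were in replicate 2, 4 in replicate 3, 7 in replicate 4 and 1 in replicate 6. For hoxc6 there were 9 ganglion counts, with 5 in replicate 2, 2 in replicate 3 and 1 each in replicates 1 and 5. Counts of both genes were thus spread over 4 libraries each, at most 1.05 TPM for hoxb6 and 0.166 TPM for hoxc6. Ganglion replicate 2, which held the most counts of both genes, had 4583 CPM of the peripheral myelin genes, the second highest sum after replicate 5, where hoxb6 had no count and hoxc6 1.

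Against the cerebellum, hoxb6 and hoxc6 were called higher in the ganglion, which is 2 of the 7 where 29.6% of all tested genes were called higher, so the count is near the background. Both genes passed the filter on low counts through the cord alone, and not through their ganglion or cerebellum counts. For hoxb6 the log2 fold change was 5.09 ± 1.15 (edgeR adjusted p = 0.00105, counts in 4 of 6 ganglion and 0 of 6 cerebellum libraries), and the gene was at least 9.71-fold higher against the floor. For hoxc6 it was 3.95 ± 1.07 (edgeR adjusted p = 0.00396, also 4 of 6 and 0 of 6), at least 4.16-fold higher. Without ganglion replicate 2 the bounds were 6.39-fold and 2.13-fold, and without replicates 2 and 5 the log2 fold changes were 4.73 and 2.88 (edgeR adjusted p = 0.00126 and 0.019). With limma on log2(TPM + 1) neither gene was called (adjusted p = 0.0484 with a log2 fold change of 0.40 for hoxb6, and 0.638 with 0.06 for hoxc6), a scale on which the added 1 shrinks changes at such levels. The other 5 genes were not called. The cord markers slc18a3, with 0 to 3 counts per ganglion library, and chat and mnx1, with no ganglion count, were at or near 0 in the ganglion libraries, and slc6a5, the glycine transporter gene of inhibitory neurons, had 0 to 16 counts there.

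Ganglion counts of the 7 genes were set beside those of the Hox genes of groups 1 to 5. The 7 genes summed to 16 counts in ganglion replicate 2, 11 in replicate 4, 6 in replicate 3, 2 in replicate 6 and 1 each in replicates 1 and 5. The 10 genes of groups 1 to 5 summed to 85 counts in replicate 1, 57 in replicate 3, 49 in replicate 4, 37 in replicate 6, 21 in replicate 2 and 13 in replicate 5. Replicate 2 was thus highest in the first sum and replicate 1 in the second, and replicate 5 was among the lowest in both. All 10 of those genes were called higher in the ganglion than in the cerebellum, where 29.6% of all tested genes were. They too passed the filter on low counts through the cord alone.

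Set among all Hox genes with a symbol, the 7 genes held a mean of 71.0% ± 1.06 (SD, n = 6) of the Hox TPM of the cord. Summed by paralogue group, the cord level was 8.51 ± 0.914 TPM for group 1, 33.2 ± 5.75 for group 2, 89.0 ± 6.32 for group 3, 15.1 ± 3.92 for group 4 and 110 ± 17.3 for group 5 (SD, n = 6). It reached 221 ± 33.5 TPM in group 6, 185 ± 26.3 in group 7 with hoxb7 included, 357 ± 44.1 in group 8 and 293 ± 27.5 in group 9. The sums of groups 10 to 13, each with 1 gene that carries a symbol, were lower. The group 10 gene hoxd10 had 13.6 ± 10.3 TPM, the group 11 gene hoxc11 1.11 ± 1.51 and the group 13 gene hoxb13 0.111 ± 0.208, and the group 12 gene hoxd12 had no count in any library. The sums depend on how many genes of a group carry a symbol, between 1 and 3 here. Groups 10 to 12 have no cluster b gene with a symbol, so there group number and cluster cannot be told apart. As a single gene, hoxd10 had a mean above that of hoxc6 (11.0 TPM) and near that of hoxb4 (15.1 TPM). The Hox genes outside the 7 with the highest mean in the cord were hoxb7, hoxb5 at 99.7 ± 17.2 TPM and hoxd3 at 49.9 ± 3.39 TPM.

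**Figure D3:**
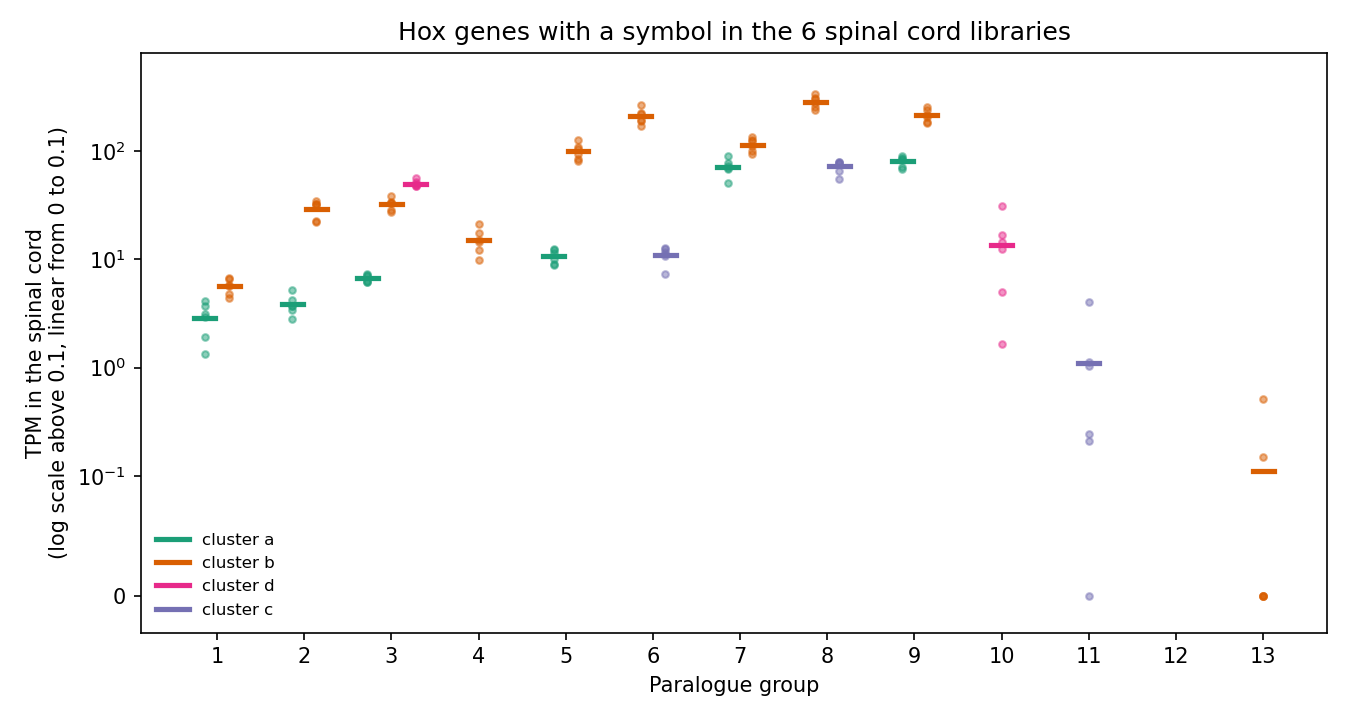
TPM in the 6 spinal cord libraries (points; bar, mean) of the Hox genes with a symbol by paralogue group (x axis), coloured by cluster, on an axis that is logarithmic above 0.1. The sums of groups 6 to 9 lie between 185 and 357 TPM, and hoxd10 in group 10 is at 13.6.

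The 7 genes varied less than 2-fold between cord libraries. The highest library was 1.31 times the lowest for hoxa9, 1.40 times for hoxb8 and for hoxb9, 1.44 times for hoxc8, 1.56 times for hoxb6 and 1.73 times for hoxc6, in TPM, and hoxa7 had the widest range, 1.8 times. The SD of log2(CPM + 0.1) over the 6 cord libraries ran from 0.16 for hoxa9 to 0.29 for hoxc6, with a median of 0.22. Among 6924 other tested genes with a mean level in the same range, from 26.0 to 404.5 CPM, the median SD was 0.20, with quartiles of 0.15 and 0.27. The median of the 7 thus lay slightly above that of genes of like level, and hoxa7 (0.28) and hoxc6 lay above the upper quartile.

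The next gene towards the tail behaved otherwise. The TPM of hoxd10 was 1.67 in the lowest cord library, 13.6 at the median and 30.9 in the highest, an 18.5-fold range, and its SD of log2(CPM + 0.1) was 1.48. It had no count in the other 12 libraries and was called higher in the cord, at least 536-fold against the cerebellum and at least 386-fold against the ganglion. Its raw counts were 489 in cord replicate 5, 262 in replicate 1, 229 in replicate 2, 225 in replicate 6, 70 in replicate 3 and 28 in replicate 4. For hoxc11 the 55 cord counts were 33 in replicate 1, 9 each in replicates 4 and 6, 2 each in replicates 2 and 5, and 0 in replicate 3. The library highest in hoxd10 was thus among the low ones in hoxc11, while replicate 1 was highest in hoxc11 and next to highest in hoxd10. The few hoxc11 counts do not show whether the 2 genes vary together.

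**Figure D4:**
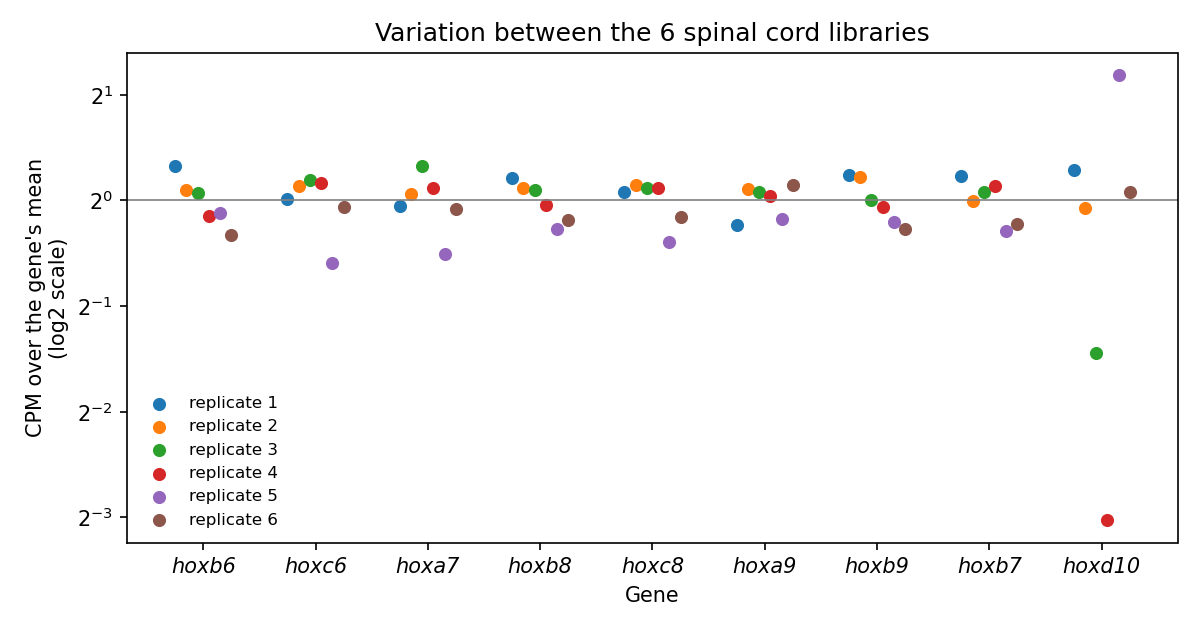
CPM of each gene in a spinal cord library divided by the gene's mean over the 6 libraries (log2 axis), for the 7 Hox genes, hoxb7 and hoxd10 (x axis), with points coloured by library. The 7 genes stay between 0.663 and 1.26 times their mean, and hoxd10 runs from 0.123 to 2.27 times.

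The share of each gene within the summed TPM of the 7 was steadiest for hoxb8, at 29.7% to 31.0% of the sum in the 6 cord libraries. It was 21.2% to 23.9% for hoxb9, 20.3% to 24.6% for hoxb6, 6.86% to 8.49% for hoxc8, 6.26% to 8.91% for hoxa7, 6.37% to 10.7% for hoxa9 and 0.916% to 1.35% for hoxc6. The 2 genes of group 9 moved apart in cord replicates 1 and 6. In replicate 1 hoxb9 stood at 1.18 times its mean CPM and hoxa9 at 0.851 times, and in replicate 6 hoxb9 stood at 0.831 times and hoxa9 at 1.11 times. Elsewhere hoxb9 and hoxa9 lay closer, at 1.165 and 1.077 times in replicate 2 and 1.001 and 1.055 in replicate 3. They stood at 0.957 and 1.03 times in replicate 4 and 0.868 and 0.884 in replicate 5. Cord replicate 5 held the lowest level of hoxc6, hoxa7, hoxc8 and hoxb8, at 0.663, 0.703, 0.761 and 0.83 times their means, and was also the library with most hoxd10.

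The summed TPM of groups 8 and 9 divided by that of groups 6 and 7 within the 7 genes was 2.23 ± 0.109 (SD, n = 6). It was 2.12 in cord replicate 1, 2.32 in replicate 2, 2.11 in replicate 3, 2.29 in replicate 4, 2.18 in replicate 5 and 2.37 in replicate 6. The acta1 level was 1295 CPM in replicate 1, 1119 in replicate 3 and 1172 in replicate 5, and it was 107, 295 and 109 CPM in replicates 2, 4 and 6. The 3 libraries with the lower ratios were thus those with the higher acta1, and the part of muscle RNA in the ratio was not tested. The 7 genes were also higher in the cord than in both other tissues without those 3 cord libraries and ganglion replicate 1.

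**Figure D5:**
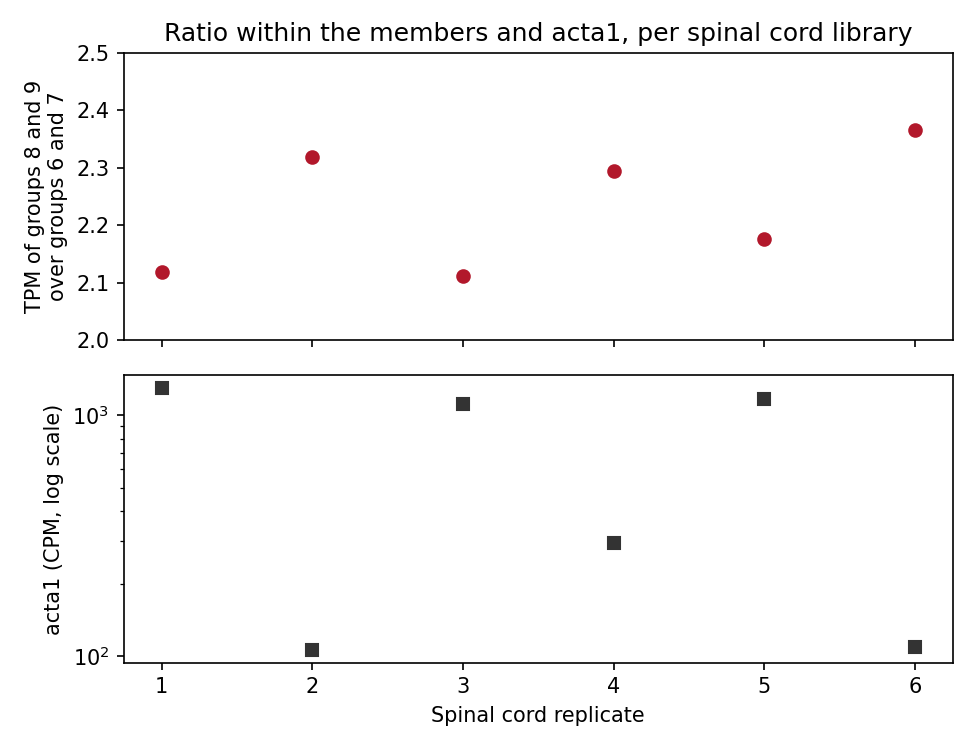
Top, the summed TPM of hoxb8, hoxc8, hoxa9 and hoxb9 over that of hoxb6, hoxc6 and hoxa7 in each spinal cord library; bottom, acta1 in CPM (log axis). The ratio lies at 2.11 to 2.18 in replicates 1, 3 and 5 and at 2.29 to 2.37 in replicates 2, 4 and 6.

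The genes outside the Hox family with the most similar profile were sought over the 18 libraries. Likeness was the root mean square difference between the log2(CPM + 0.1) values of a gene, centred on its own mean, and the mean centred profile of the 7 genes, and 9561 tested genes with a symbol were compared. The nearest was uts2b, which codes for a peptide of the urotensin family, at 0.51 log2 units, with 181 ± 67.5 CPM in the cord (SD, n = 6), 5 counts in the ganglion and none in the cerebellum. Next came slc18a3, the vesicular acetylcholine transporter, at 1.05, the gene cunh20orf85 at 1.08, the choline transporter slc5a7 at 1.13 and mnx1, a homeodomain factor of motor neurons, at 1.20. The 7 genes themselves lay between 0.33 (hoxa7) and 1.25 (hoxc6) from their own mean profile, which is a description and not a test.

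Genes that work with Hox proteins or act around them were counted in the same fits. TALE homeodomain proteins bind DNA together with Hox proteins, and 5 of 9 listed genes were in the table. In the cord 2 were higher than in the cerebellum, 1 was lower and 2 were not called. Of all tested genes 28.9% were called higher in that comparison and 16.3% lower. Set against the ganglion, 4 were higher in the cord, where 17.3% of all tested genes were, and 1 was not called. The cofactor gene meis2 had 61.7 ± 6.75 CPM in the cord and 6.42 ± 2.02 in the cerebellum, a log2 fold change of 3.26 ± 0.24 (edgeR adjusted p = 7.09e-10), and pknox1 was at -1.73 ± 0.186. The gene pbx3 was at 1.00 ± 0.181, on the threshold, and its call, and with it the count of 2, was lost in 16 of 27 alternatives, with the replicate block (0.99) and DESeq2 (0.97) among them. Against the ganglion pbx3 was at 3.71 ± 0.202 and meis2 at 1.73 ± 0.225.

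Of 14 genes of the retinoic acid, growth factor and Cdx signals that act upstream of Hox genes in embryos, 7 were in the table and 5 were tested. Against the cerebellum the growth factor gene gdf11 was higher in the cord, at 1.07 ± 0.144, and 4 genes were lower. Of all tested genes 28.9% were called higher in this comparison and 16.3% lower. The gdf11 call was lost on both TPM scales and without cerebellum replicate 4. The retinoic acid receptor genes rarb and rarg were at -2.62 ± 0.437 and -1.82 ± 0.37, and aldh1a2, which codes for an enzyme that makes retinoic acid, at -1.40 ± 0.496, with 24.0 ± 21.9 CPM in the cord. Against the ganglion nr6a1 was higher, at 1.48 ± 0.516, and aldh1a2 lower, at -2.09 ± 0.506, with 3 not called. Of all tested genes 17.3% were called higher there and 14.5% lower. The nr6a1 call was lost without ganglion replicate 3 and in 3 other alternatives, and gdf11 and nr6a1 are named because the counts are small, after their values were seen.

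Polycomb and trithorax proteins keep Hox genes silent or active, and 20 of 31 listed genes were tested. Against the cerebellum 6 were lower in the cord, set against the 16.3% of all tested genes, and the other 14 were not called, with a median log2 fold change of -0.86 against 0.08 for all tested genes. Of these, cbx8 was at -1.84 ± 0.282 and kdm6b at -1.83 ± 0.177. On log2(TPM + 0.1) 13 were lower, and 10 were without cerebellum replicate 2. Against the ganglion pcgf3, named after its value was seen, was higher at 1.19 ± 0.273, where 17.3% of all tested genes were called higher. This call was lost without ganglion replicates 2 and 5, and 19 listed genes were not called. On log2(TPM + 0.1), where the median of all tested genes was 0.46 in place of 0.01, 6 were higher.

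The list of motor column and spinal neuron genes held 17 symbols, of which POU3F1 and SCIP name the same gene. Among the listed genes are some that Hox proteins act on in mouse and chick, and 12 were tested. Against the cerebellum 9 were higher in the cord, 1 was lower and 2 were not called. Of all tested genes 28.9% were called higher there and 16.3% lower. The motor neuron factors mnx1, with 1522 cord counts, and lhx4, with 837, had none in the cerebellum. Both passed the filter on low counts through the cord alone, so a call in its favour was bound to follow. The same holds for slc18a3, chat and nkx6-1, with means of at most 0.302 CPM in the cerebellum and 0.103 CPM in the ganglion. Of these, chat and nkx6-1 are named after their values were seen. The number of genes called higher was thus in part fixed in advance, against the cerebellum and against the ganglion. The level of mnx1 was at least 626-fold higher in the cord, that of lhx4 at least 344-fold, and slc18a3 was at 9.64 ± 0.51. Against the ganglion 7 were higher in the cord and 4 were lower, where 17.3% of all tested genes were called higher and 14.5% lower. The lower ones were isl1, isl2 and ret, which sensory neurons also express, and aldh1a2, named after their values were seen.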

How the data were processed

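Counts and TPM per gene and library were taken from the deposited table. For the authors' raw counts, the submitters' processing notes list STAR 2.7.7a, featureCounts, Subread 2.0.1, Trimmomatic 0.39 and CASAVA 1.8.2. Build, annotation and strand setting were not given in the sources used here. The TPM values were scaled by the authors to gene length and library, per the file headers. Of 28031 genes 17658 carry only a locus identifier, so further Hox genes among them would not be found by symbol, and reads shared between similar paralogues were not examined. Every column of sample values was mapped.

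Genes were kept by filterByExpr (20691), normalized with TMM factors and fitted in a single model over 18 libraries with edgeR 4.0.16 (R 4.3.3). The test was the quasi-likelihood F-test, and the fit was tested on simulated data. The design leaves 15 residual degrees of freedom, and edgeR takes fewer for a gene with no count in a whole tissue. The approximate SE is the absolute log2 fold change over the square root of F. Alternatives used limma 3.58.1 and DESeq2 1.42.0, and figures Python 3.11.15 with matplotlib 3.10.9. Folds against a tissue without counts assume 3 counts over its libraries as a floor, and ratios with few counts carry a 95% Clopper-Pearson interval. Both cover counting error only.

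Genes were named by rule: all 7 genes, Hox genes of groups 10 to 13, the 3 other Hox genes highest in the cord, up to 3 called genes per list with the largest change against the cerebellum (mean log2 CPM 1 or more), and the 5 most similar profiles. A gene that this rule names is not reported here. Members, lists and rules were chosen with earlier results of these data known.

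Replicate numbers are shared between tissues, and the labels do not say that a number is a fish. Deviations from the tissue mean correlated between same-numbered libraries, across genes, at 0.243 to 0.437 for cord and cerebellum and 0.133 to 0.425 for cord and ganglion, above 0.1 in 6 of 6 pairs each, and above it in 4 of 6 for ganglion and cerebellum. Between differently numbered libraries the highest correlation was 0.0998 for cord and cerebellum, 0.162 for cord and ganglion and 0.0761 for ganglion and cerebellum. For cord and ganglion and for ganglion and cerebellum this exceeds the lowest same-numbered value, 0.133 and 0.0596. The best match bore the same number for every library of cord and cerebellum, but not in the other pairs of tissues. The numbers were taken to pair the libraries, though only cord and cerebellum separated fully. This pairing comes from the data. The main fit held no replicate block, so its p-values and SEs leave the pairing out, and the block was used only as an alternative.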

Additional observations from a re-analysis of the deposited data

Results flagged for a closer look

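Single libraries far from the other 5 of their tissue, by Dixon's 95% critical value for 6 samples, were looked for in 15 sets of values. Chance alone flags about 5% of sets of normally distributed values, and sets made mostly of 0 counts are not of that kind. A set with counts in a single library is always flagged, as were hoxb9, hoxb8 and hoxc8 below. In the spinal cord, hoxc6 in replicate 5 stood at 7.33 TPM (207 counts), below the 10.8 to 12.7 TPM of the others, and the gene kept its call without this library. The other 4 rest on 7 counts or fewer. They are hoxc6 at 0.166 TPM in ganglion replicate 2 (5 counts), hoxb9 at 0.171 TPM in ganglion replicate 4 (2 counts), hoxb8 at 0.106 TPM in cerebellum replicate 1 (2 counts) and hoxc8 at 0.381 TPM in cerebellum replicate 3 (7 counts). The source of these counts was not tested.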

How the results depend on the processing

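Under 27 alternatives (DESeq2 or its size factors, no filter on low counts, limma on log2(TPM + 0.1) or log2(TPM + 1), the replicate block, only 2 tissues in the fit, each library left out in turn, and 2 sets of libraries left out), all 7 genes were called higher in the cord than in either tissue, with a highest adjusted p of 1.17e-05. In the settings that kept the filter the genes passed it through the cord alone, so calls in favour of the cord were bound to follow. The fit with only 2 tissues also kept the filter set on all 18 libraries. In the paired fit with the replicate block, 7 genes were higher in the cord than in the cerebellum and 7 than in the ganglion. In that fit 2 were higher in the ganglion than in the cerebellum, and of the genes named by rule only pbx3 lost a call (0.99). Of the 2 genes higher in the ganglion than in the cerebellum, 1 was called on log2(TPM + 0.1), where hoxc6 was at 0.47 (adjusted p = 0.0999), and 0 on log2(TPM + 1). Over the alternatives the adjusted p ran from 7.62e-07 to 0.0484 for hoxb6 and from 0.000735 to 0.638 for hoxc6. The 3957 and 3054 genes called higher there on these scales, against 6132 of all tested genes, and the 5788 called higher in the cord than in the ganglion on log2(TPM + 0.1), against 3579, go with a shift of the median gene, from 0.07 to -0.61 and -0.47 and from 0.01 to 0.46. The cause was not tested. Without the 4 libraries highest in acta1, kdm6b against the ganglion, not called, was at -0.21 in place of 0.18. Pairs of genes ordered alike in all cord libraries numbered 17 of 21 on log2(TPM + 1) and 17 to 18 with a library left out. In CPM they numbered 19. Of these, 15 were shared with the 17 per length, since the order of hoxa9 to hoxb6 and to hoxb9 is lost. The 4 ordered alike in CPM only were hoxb9 above hoxb6, hoxa9 above hoxc8, hoxa9 above hoxa7 and hoxc8 above hoxa7. Depth limits the ganglion and cerebellum values, which rest on few counts.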

Other observations

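Few genes were as confined to the cord libraries as these. The following thresholds were chosen after the values were seen. Of 11634 genes with at least 100 counts in each cord library, 2 had no count in the 12 other libraries, and these were hoxa7 and hoxa9. With at most 10 counts over the 12 other libraries there were 27, of which 10 were Hox genes and 13 carried only a locus identifier. Among the 10 were 6 of the 7 genes described here, the exception being hoxb6 with its 21 ganglion counts, and the rest were hoxb7, hoxb4, hoxb3 and hoxb1. The 4 other genes with a symbol were chat, the enzyme that makes acetylcholine, slc10a4, a transporter of synaptic vesicles, uts2b and cunh20orf85.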
